A study of Mus musculus with 4 samples.

Results

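Fgf1, Fgf2, Fgf7, Fgf10, Fgf18, Fgfr1, Fgfr2, Fgfr3, Fgfr4 and Fgfrl1 are ligands and receptors of the fibroblast growth factor (FGF) pathway. They were chosen by name and were found on the arrays by matching the accession of each probe to a RefSeq gene symbol. All 10 had probes, 20 in all with 1 spot each, among 22911 genes that could be named. The RNA came from 2 populations that were sorted out of tumors, mesenchymal stroma cells (MSCs) and CD8+ T cells, of C57BL/6Ncr mice aged 8 weeks, either wild type (Wt) or lacking Sipa1 (Sipa1-/-), a GTPase-activating protein that switches off Rap1. Every mouse carried tumors grown for 12 days after 15000 Bcr-Abl+ hematopoietic progenitor cells marked with GFP were placed under the skin in Matrigel. Bcr-Abl is the fusion kinase of chronic myelogenous leukemia. MSCs were the GFP- CD45- Ter119- CD31- cells. Such a gate is meant to remove tumor cells, leukocytes, red cells and endothelium but selects for no mesenchymal protein. CD8+ T cells were the GFP- TCRb+ CD8+ cells. The series used 5 mice of each genotype, and whether their cells were pooled is not given in the sources used here.

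FGF ligands are secreted proteins that bind heparan sulfate on cell surfaces and in the matrix and activate receptor tyrosine kinases on nearby cells. Most connective tissue cells signal through Fgfr1, and fibroblasts secrete Fgf7 and Fgf10, which act on epithelial cells through a splice form of Fgfr2. Activated receptors pass the signal through the adaptor Frs2 to the MAP kinase pathway, which induces inhibitors of the Sprouty and Dusp families and ETS transcription factors.

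The 4 arrays, 1 per cell type and genotype, shared 1 slide. With 1 array per condition, differences could not be set against a spread between replicates, and no statistical test was run. Each value is the log2 signal of a probe minus the 75th percentile of its array, so that 0 stands for the 75th percentile, and the ± after a ratio is the error that the scanner software assigned to the spots, which leaves out the spread between mice. No gene was ranked against another by level, since probes differ in brightness for the same amount of RNA. Between 60.3% and 65.3% of the 59305 spots that are not controls were well above background. The levels of the Sipa1 probes went with the genotype labels, at 5.03 and 3.05 on the Wt MSC array against 3.78 and 1.46 on the Sipa1-/- MSC array, and at 5.40 and 3.43 against 3.73 and 1.39 in CD8+ T cells.

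The sorted populations carried the markers of their names at higher levels than the other sort, but most markers were above background in both. Of 30 fibroblast markers, 29 were well above background on each MSC array and 28 and 29 on the Wt and Sipa1-/- CD8+ T-cell arrays. Their summed levels were 10.8 and 11.8 against 7.93 and 8.57. A summed level is the log2 of the added signals of each gene's brightest probe, so the brightest genes set most of it. On the CD8+ T-cell arrays Thy1, also a T-cell gene, was at 7.37 and 7.46. All 15 CD8 T-cell markers were above background on both CD8+ T-cell arrays, and 14 and 15 on the Wt and Sipa1-/- MSC arrays, with summed levels of 10.01 and 10.05 against 4.86 and 3.56. Cd8b1, a chain of the CD8 receptor, had levels of 7.29 and 7.41 on the CD8+ T-cell arrays against -2.56 and -1.26 on the MSC arrays. The Wt MSC array also held all 18 B-lineage markers above background, against 17 on the Sipa1-/- MSC array and 16 on each CD8+ T-cell array. Vpreb1 and Vpreb3, parts of the pre-B receptor, had levels of 7.57 and 7.55 on the Wt MSC array and 3.45 and 3.57 on the Sipa1-/- MSC array. The summed level of the B-lineage markers was 9.60 on the Wt and 5.59 on the Sipa1-/- MSC array. A smaller share of fibroblasts and less fibroblast RNA per cell cannot be told apart in such bulk RNA.

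The 250 bases before the start site of 4 members are shown because Fgf7, Fgf10 and Fgf18 were brighter on the Sipa1-/- than on the Wt MSC array and Fgfr2 was level between them. The sequences are from RefSeq on build GRCm38.p6 and read 5′ to 3′ along the strand of the gene, with the GC box GGGCGG, on either strand, in capitals. They lie at chr2:126034408-126034657 on the plus strand (Fgf7), chr13:118714449-118714698 on the plus strand (Fgf10), chr11:33147401-33147650 on the minus strand (Fgf18) and chr7:130266809-130267058 on the minus strand (Fgfr2).
Fgf7: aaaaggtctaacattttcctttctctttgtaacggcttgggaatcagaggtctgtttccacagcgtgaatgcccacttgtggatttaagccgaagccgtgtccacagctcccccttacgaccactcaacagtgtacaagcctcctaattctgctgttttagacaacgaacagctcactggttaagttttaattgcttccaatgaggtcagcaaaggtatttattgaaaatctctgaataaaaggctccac
Fgf10: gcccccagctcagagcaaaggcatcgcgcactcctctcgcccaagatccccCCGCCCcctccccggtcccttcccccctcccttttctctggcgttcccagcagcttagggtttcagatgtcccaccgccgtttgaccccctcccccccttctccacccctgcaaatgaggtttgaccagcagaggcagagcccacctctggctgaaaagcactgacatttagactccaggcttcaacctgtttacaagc
Fgf18: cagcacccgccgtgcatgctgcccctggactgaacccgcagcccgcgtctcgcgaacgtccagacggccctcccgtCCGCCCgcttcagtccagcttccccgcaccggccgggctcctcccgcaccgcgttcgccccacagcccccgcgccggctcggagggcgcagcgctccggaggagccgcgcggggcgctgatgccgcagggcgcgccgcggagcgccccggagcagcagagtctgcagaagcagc
Fgfr2: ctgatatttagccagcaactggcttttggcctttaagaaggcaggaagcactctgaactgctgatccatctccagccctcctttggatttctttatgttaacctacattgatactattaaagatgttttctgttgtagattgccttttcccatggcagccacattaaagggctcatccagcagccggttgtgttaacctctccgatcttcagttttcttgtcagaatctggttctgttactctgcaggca

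These windows had no base composition in common. The GC content was 43.6% for Fgf7, 61.2% for Fgf10, 77.2% for Fgf18 and 44.0% for Fgfr2, against a median of 52.4% over 32851 promoters. Fgf10 and Fgf18 had 1 GC box each and Fgf7 and Fgfr2 had 0, while 32.7% of all promoters held at least 1. Of the members not shown, Fgf2 and Fgfr4, also past 2-fold higher on the Sipa1-/- MSC array, had 1 and 2. Fgfrl1 had 4, and Fgfr3 had 3 and 2 in its separate windows. Of the 10 members, 8 had a promoter in the RefSeq table, and none of their windows held TATAAA (12.4% of all promoters), CAGGTG (17.2%), TGACTCA (4.46%) or GGAATG (12.6%) on either strand. No match says only that these letters are not in this window.

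**Figure D1:**
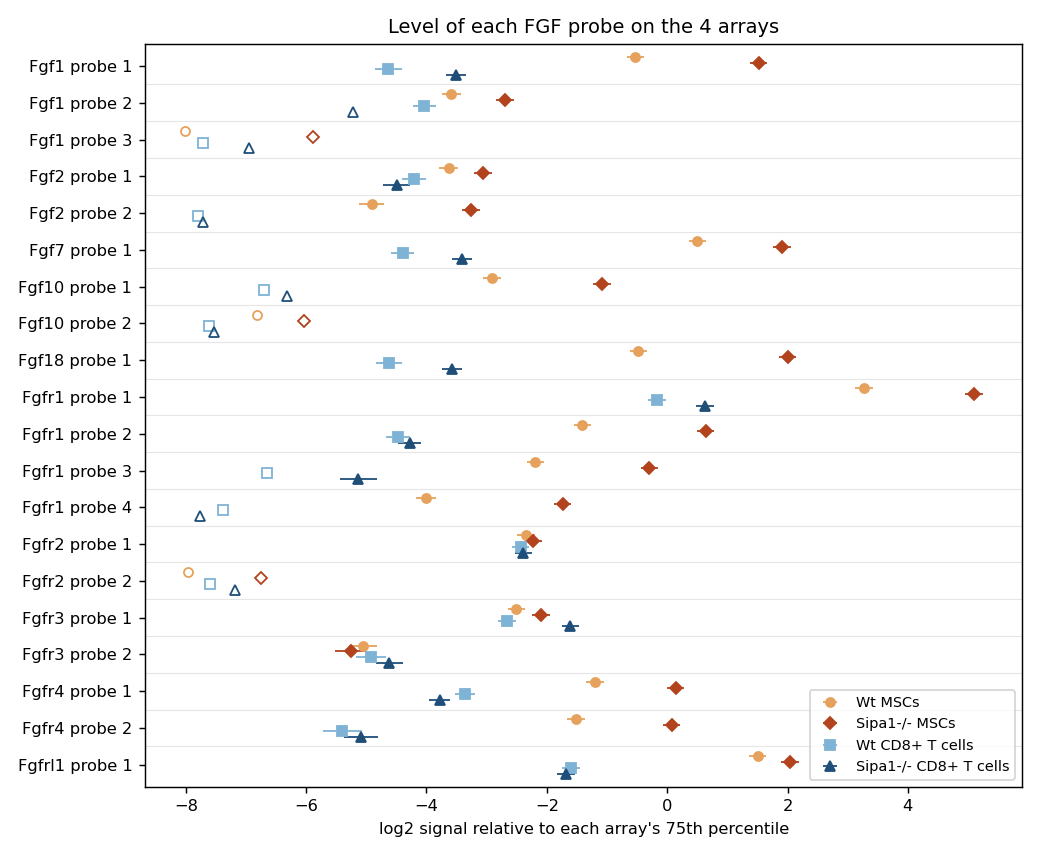
Level of each of the 20 FGF probes on the 4 arrays, as log2 signal relative to the 75th percentile of the array. Points are single arrays, bars are the spot error of the scanner software, and open symbols are spots not well above background. On the Sipa1-/- MSC array the Fgf18 probe lay at 2.00 and the second Fgfr1 probe at 0.64, above the other 3 arrays, while the first Fgfr2 probe lay between -2.44 and -2.22 on all 4.

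MSCs of Sipa1-/- tumors had more signal than Wt MSCs for most FGF ligands and for Fgfr1 and Fgfr4. All 10 members were measured on both MSC arrays, and 7 were higher by 2-fold or more on the Sipa1-/- array and 0 were lower by that much, where the shares of all 15298 genes measured were 19.3% and 11.3%. The count was 6 under some other ways of processing, in which Fgf2 fell within 2-fold. The median log2 ratio of the members was 1.44, with a range of 0.10 to 2.48, beside 0.04 over all genes measured, but turned to -0.27 when the arrays were aligned on the median of the fibroblast markers instead. That alignment moves every gene down by 1.70 on the log2 scale, the median ratio of the 26 fibroblast markers measured. All 26 of these markers were higher on the Sipa1-/- array, 22 of them at least 2-fold, although Col1a2 and Dcn, which encode a collagen chain and the matrix proteoglycan decorin, had ratios of 0.35 and 0.86. In the opposite direction, all 17 B-lineage markers measured were lower by 2-fold or more in Sipa1-/- MSCs, with a median of -4.22, and so were 11 of 14 pan-leukocyte markers, with a median of -1.99. The part of either in the FGF ratios was not tested.

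Fgf18, a ligand of cartilage, bone and lung mesenchyme, had the largest ratio of the members. Its probe had levels of -0.48 and 2.00 in Wt and Sipa1-/- MSCs, and of -4.62 and -3.58 in Wt and Sipa1-/- CD8+ T cells. The 2 MSC arrays lay above both CD8+ T-cell arrays, and within each cell type the Sipa1-/- array was the higher. In MSCs the log2 ratio was 2.48 ± 0.20, or 5.59-fold, which placed Fgf18 at the 99.0th percentile of all genes measured, and it stayed at 0.78 with the arrays aligned on fibroblast markers.

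Fgf7, or keratinocyte growth factor, had levels of 0.50 and 1.91 on the Wt and Sipa1-/- MSC arrays and -4.40 and -3.41 on the CD8+ T-cell arrays in the same order. Its ratio in MSCs was 1.41 ± 0.20 (2.65-fold), which was below the fibroblast median and turned to -0.30 with the alignment on fibroblast markers. Fgf10, the related ligand of limb and lung budding, was measured by 1 of its 2 probes, at -2.91 on the Wt and -1.09 on the Sipa1-/- MSC array. Its ratio was 1.82 ± 0.21 (3.54-fold), or 0.12 after that alignment, which is within the spot error. On the CD8+ T-cell arrays that probe was not well above background, and the second probe was not well above background on any array. Both ligands thus had their signal on the MSC arrays, with Fgf7 alone above background in CD8+ T cells.

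Fgf1, the acidic FGF that binds every FGF receptor, has 3 probes that gave unequal ratios. The brightest had levels of -0.53 and 1.52 on the Wt and Sipa1-/- MSC arrays and -4.64 and -3.51 on the CD8+ T-cell arrays, with a ratio of 2.05 ± 0.20 in MSCs. The second had levels of -3.59 and -2.69 in MSCs and a ratio of 0.90 ± 0.22. The third was not well above background on any array. Averaged over the probes that passed, Fgf1 had a ratio of 1.47 ± 0.15 (2.77-fold) in MSCs, which turned to -0.23 with the alignment on fibroblast markers, and the direction but not the size was shared by both probes.

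Fgf2, the basic FGF, which lacks a classical signal peptide, was dim on every array. Its first probe had levels of -3.63 and -3.06 on the Wt and Sipa1-/- MSC arrays and -4.20 and -4.50 on the CD8+ T-cell arrays. Its second probe had levels of -4.91 and -3.26 in MSCs and was not well above background in CD8+ T cells. The ratios in MSCs were 0.58 ± 0.22 and 1.65 ± 0.26, and their mean of 1.11 ± 0.17 (2.17-fold) passed 2-fold through the dimmer probe alone. Correcting the background by the normexp method instead gave 0.40, and the alignment on fibroblast markers gave -0.59.

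Among the receptors, Fgfr1, the main FGF receptor of mesenchymal cells, had the largest ratio in MSCs, and all of its probes gave a like value. The 3 probes that passed the flags had levels of -1.41, -2.19 and -4.01 on the Wt MSC array and 0.64, -0.30 and -1.74 on the Sipa1-/- MSC array. Their ratios were 2.05 ± 0.20, 1.89 ± 0.21 and 2.27 ± 0.22, with a mean of 2.07 ± 0.12 (4.20-fold) at the 97.1th percentile of all genes. The brightest probe had levels of 3.27 and 5.10 on the Wt and Sipa1-/- MSC arrays and -0.17 and 0.62 on the CD8+ T-cell arrays, but the scanner software marked its local background as uneven on 3 of the 4 arrays, so it did not enter the mean. Its ratio of 1.83 in MSCs lay close to the other 3. With the arrays aligned on fibroblast markers, the ratio of Fgfr1 was 0.37.

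Fgfr4, a receptor of liver and of muscle progenitors, also differed between the MSC arrays. Its probes had levels of -1.20 and -1.52 on the Wt and 0.14 and 0.07 on the Sipa1-/- MSC array, with ratios of 1.34 ± 0.20 and 1.59 ± 0.20 and a mean of 1.47 ± 0.14 (2.76-fold), or -0.24 after the alignment on fibroblast markers. Skeletal muscle RNA was present in these sorts, and 12 of 12 muscle markers were well above background on both MSC arrays. Tnnc2, a troponin, had levels of 5.59 and 6.37 in Wt and Sipa1-/- MSCs, and the muscle markers had a median ratio of 0.60, with 11 of 12 higher and 1 at least 2-fold. The part of muscle RNA in the Fgfr4 signal was not tested.

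Fgfr2, Fgfr3 and Fgfrl1 differed by less than 2-fold between the MSC arrays. Fgfr2, the receptor of epithelial cells for Fgf7 and Fgf10, was measured by 1 of 2 probes, at -2.35 and -2.22 on the Wt and Sipa1-/- MSC arrays and -2.44 and -2.39 on the CD8+ T-cell arrays. Its ratio of 0.13 ± 0.21 in MSCs was within the spot error. Fgfr3, a receptor that restrains cartilage growth, had probes at -2.51 and -5.06 on the Wt and -2.10 and -5.26 on the Sipa1-/- MSC array, and the opposite signs of their ratios, 0.41 ± 0.21 and -0.20 ± 0.35, left a mean of 0.10 ± 0.20. Fgfrl1, a receptor that lacks the kinase domain, had levels of 1.50 and 2.04 on the MSC arrays and a ratio of 0.54 ± 0.20. Aligned on fibroblast markers, these 3 receptors lay at -1.58, -1.60 and -1.17, the members more than 2-fold lower under that scaling.

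**Figure D2:**
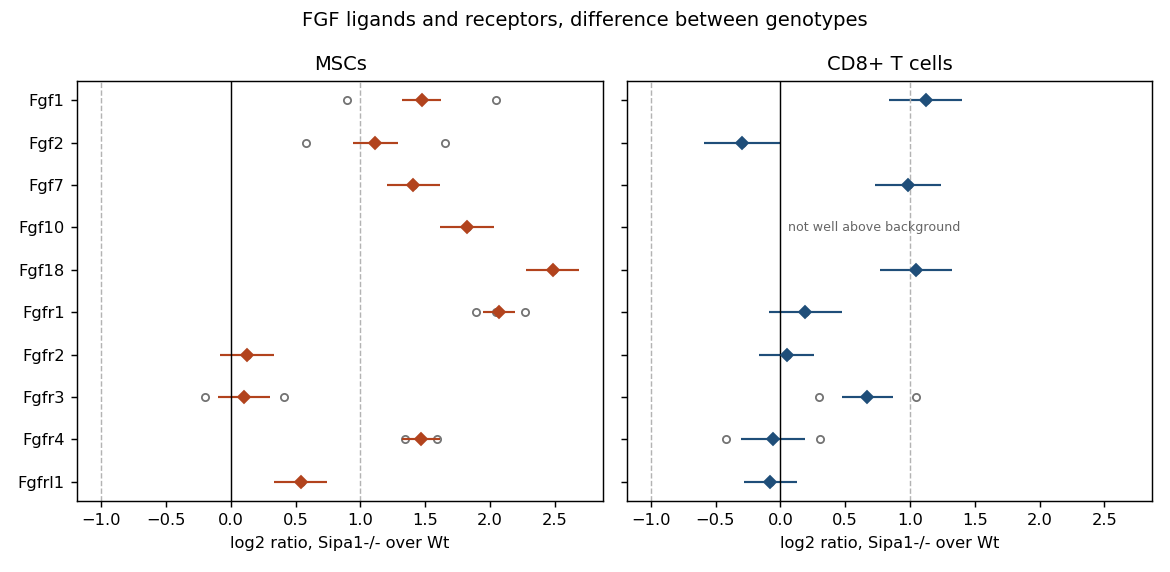
Log2 ratio of Sipa1-/- over Wt for each FGF gene, in MSCs (left) and CD8+ T cells (right), with arrays scaled to the 75th percentile. Diamonds are the mean over the probes that passed the flags, bars are spot error, open circles are single probes where a gene has several, and dashed lines mark 2-fold. In MSCs 7 genes lay beyond 2-fold, from 1.11 for Fgf2 to 2.48 for Fgf18, of which Fgf1, Fgf2, Fgf7 and Fgfr4 turned below 0 with the arrays aligned on fibroblast markers, while in CD8+ T cells Fgf1 at 1.12 and Fgf18 at 1.05 lay beyond 2-fold, and none did with median scaling, quantile normalization or normexp.

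In CD8+ T cells the FGF genes were dim, and fewer of them differed between the genotypes. Of 9 members measured, 2 were higher by 2-fold or more on the Sipa1-/- array and 0 were lower by that much, where the shares of all 14339 genes measured were 2.66% and 1.4%, and their median ratio was 0.19 beside -0.02 over all genes. No member passed 2-fold with median scaling, quantile normalization or the normexp background, the last of which gave 0.41 for Fgf1 and 0.34 for Fgf18. Scaled to the 75th percentile, Fgf1 had a ratio of 1.12 ± 0.28 through its brightest probe, and Fgf18 had 1.05 ± 0.28. Fgf7 lay just inside 2-fold at 0.98 ± 0.25. For Fgf1 the second probe went the other way, from -4.04 on the Wt array to -5.22 on the Sipa1-/- array. It was not well above background on the latter, so the 2.27-fold between the 2 spots is neither a measured ratio nor a lower limit. The third Fgfr1 probe was above background on the Sipa1-/- array alone, at least 1.35-fold higher there.

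The receptors in CD8+ T cells differed by less than 2-fold. Fgfr3 had a ratio of 0.67 ± 0.20, from 1.05 ± 0.21 and 0.30 ± 0.34 for its probes. Fgfr1 had 0.19 ± 0.28 through 1 of its 4 probes, or 0.83 where a probe could pass the flags on 1 array only, Fgfr2 0.05 ± 0.21, Fgfr4 -0.06 ± 0.25 and Fgfrl1 -0.08 ± 0.21, and the ligand Fgf2 had -0.29 ± 0.30. For Fgf2, Fgfr2, Fgfr4 and Fgfrl1 the means differed between the genotypes by no more than spot error. Fibroblast markers also differed between the CD8+ T-cell arrays, as 24 of 28 measured were at least 2-fold higher on the Sipa1-/- array, with a median ratio of 1.56, and Dcn had levels of 2.63 and 4.31. The summed level of the fibroblast list, which includes the T-cell gene Thy1, was 7.93 on the Wt and 8.57 on the Sipa1-/- CD8+ T-cell array, while 0 of 15 CD8 T-cell markers differed by 2-fold. Granulocyte markers went the other way, with 8 of 11 lower by 2-fold or more on the Sipa1-/- array and a median of -1.27, as did 3 of 16 B-lineage markers, among them Vpreb1 from 1.96 to -0.08 and Vpreb3 from 2.25 to 0.43. The part of RNA of these other cells in the Fgf1, Fgf7 and Fgf18 signals of the CD8+ T-cell arrays was not tested.

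Between the cell types, the FGF genes separated into those of the MSC arrays and those with a like signal in both sorts. In Wt tumors, 6 of 9 members measured were at least 2-fold higher in MSCs and 0 lower, beside 17.3% of 14225 genes at least 2-fold higher and 12.8% lower, with a median of 3.02 against -0.06 over all genes. In Sipa1-/- tumors the counts were 7 and 0 of 9, beside 21.9% of 14300 genes higher and 18.7% lower, with a median of 4.54 against -0.18. Fgf7 was 29.8-fold higher in MSCs of Wt tumors and 40.0-fold higher in those of Sipa1-/- tumors. Fgf18 was 17.7-fold and 47.8-fold higher, Fgfr1 8.36-fold and 29.4-fold, Fgfr4 8.12-fold and 23.3-fold, and Fgfrl1 8.60-fold and 13.2-fold in the same order. For Fgfr4 the first probe gave 4.48-fold and 15.2-fold, and the second gave 14.7-fold and 35.9-fold. On the Wt and Sipa1-/- CD8+ T-cell arrays the second probe lay only 0.16 and 0.40 above the dimmest signal that was well above background. Fibroblast markers had larger medians than the FGF members, at 4.88 in Wt and 5.32 in Sipa1-/- tumors. Skeletal muscle markers had 6.11 and 6.53, and B-lineage markers 4.17 and -0.12, in the same order. Lists lower in MSCs of Wt tumors included the CD8 T-cell, pan-leukocyte and endothelial markers, with medians of -7.25, -1.80 and -1.18. The part of RNA of these other cells in the FGF ratios was not tested.

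For the genes below background in CD8+ T cells the difference has only a lower limit, the MSC level over the dimmest signal that the software placed well above background. Fgf10 was at least 6.29-fold higher in MSCs of Wt tumors and at least 21.2-fold higher in those of Sipa1-/- tumors. The second Fgf2 probe was at least 1.57-fold and 4.70-fold higher, and the third Fgfr1 probe at least 10.3-fold higher in MSCs of Wt tumors. Fgf1 had a log2 ratio of 2.28 in Wt tumors, but from 0.45 and 4.11 for its probes, and 5.03 in Sipa1-/- tumors through its brightest probe. Fgfr2 and Fgfr3 showed no such separation, with log2 ratios of MSCs over CD8+ T cells of 0.09 ± 0.21 and 0.00 ± 0.20 in Wt tumors and 0.17 ± 0.21 and -0.57 ± 0.20 in Sipa1-/- tumors.

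**Figure D3:**
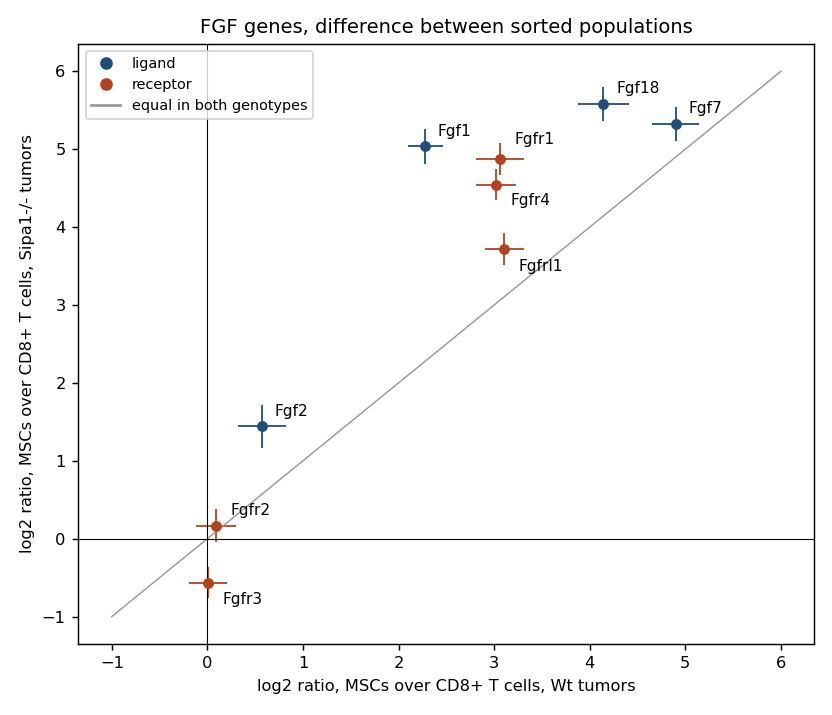
Log2 ratio of MSCs over CD8+ T cells for each FGF gene measured in both, in Wt tumors (x axis) and Sipa1-/- tumors (y axis). Bars are spot error and the diagonal marks an equal ratio in both genotypes. Fgf7, Fgf18, Fgf1, Fgfr1, Fgfr4 and Fgfrl1 lay at 2.28 or more on both axes, Fgf2 at 0.57 and 1.44, and Fgfr2 and Fgfr3 near 0 in Wt tumors. Fgf10 is left out because its CD8+ T-cell signal was not well above background.

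The other secreted FGF ligands were mostly not well above background. Ratios of these and the following lists are those of arrays scaled to the 75th percentile, and the alignment on fibroblast markers lowers each by 1.70. Of 13 genes, 4 were measured on both MSC arrays, with a median ratio of 0.56 and 2 at least 2-fold higher on the Sipa1-/- array, too few to set beside the 19.3% of all genes. Fgf9, a mesenchymal and epithelial ligand, had levels of -4.47 and -2.55 on the Wt and Sipa1-/- MSC arrays and was not well above background in CD8+ T cells. Fgf23, the phosphate-regulating hormone of bone, gave a bright signal on all 4 arrays, at 3.22 and 4.54 in MSCs and 3.70 and 3.77 in CD8+ T cells. Fgf3 and Fgf8, ligands of the embryo, were dim, with Fgf3 at -4.72 and -5.68 in MSCs and a ratio of -0.19 for Fgf8. Fgf21, a hormone of the liver, was above background on the Sipa1-/- MSC array alone, at -4.53.

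The FGF homologous factors, which stay inside the cell and bind sodium channels, went in opposite directions. Fgf11 had a mean level of -3.10 on the Wt and -0.59 on the Sipa1-/- MSC array, a ratio of 2.51, while Fgf13 had -3.57 and -5.06, a ratio of -1.50. In CD8+ T cells Fgf13 had a ratio of 0.02. Fgf12 had a ratio of 0.30 in MSCs.

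Proteins that hold FGFs at the cell surface went with the ligands and receptors in MSCs. Of 12 coreceptors, heparan sulfate proteoglycans and binding proteins measured, 9 were higher on the Sipa1-/- array by 2-fold or more and 0 lower by that much, beside 19.3% and 11.3% of all genes, and their median of 1.73 lay beside the 1.70 of the fibroblast markers. Gpc6 and Gpc1, glypicans anchored in the membrane, had ratios of 2.67 and 1.98. Fgfbp1, a carrier that releases FGFs from the matrix, had 2.49. Flrt2, a membrane protein that binds FGF receptors, had 1.63. All 3 members of its family were higher on the Sipa1-/- array, with Flrt1 at 1.14 and Flrt3 at 0.75, and 2 passed 2-fold. These are too few genes to set beside the 51.8% of all genes that were higher and the 19.3% past 2-fold. All 3 would turn lower with the alignment on fibroblast markers.

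Few genes that relay the receptor signal differed by 2-fold. Of 21 relay genes measured in MSCs, 1 was higher on the Sipa1-/- array by 2-fold or more and 0 lower by that much, beside 19.3% and 11.3% of all genes, with a median of 0.11. Gab1, a docking protein, had the largest ratio at 1.18, followed by the adaptor Frs3 at 0.79 and the phospholipase Plcg1 at -0.78. In CD8+ T cells 0 of 20 passed 2-fold in either direction, where 2.66% and 1.4% of all genes did.

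Among genes that FGF signalling induces, the shares past 2-fold were near those of all genes. Of 9 feedback inhibitors measured in MSCs, 2 passed 2-fold upward and 1 downward in Sipa1-/- cells, beside 19.3% and 11.3% of all genes, with a median of 0.76. Dusp6, the phosphatase that switches off ERK, was the one lower, at 2.91 on the Wt and 1.16 on the Sipa1-/- MSC array, while it had 1.83 and 1.94 in CD8+ T cells. Dusp4, a related phosphatase, had a ratio of 1.46 and Il17rd, which holds back FGF receptor signals, had 1.15. Spry1 and Spry2, named after their values were seen because they are classical FGF targets, had ratios of 0.98 and 0.93 in MSCs and 1.03 and -0.66 in CD8+ T cells. Of the ETS factors that FGF signalling induces in many tissues, Etv1 had 1.61, Etv4 0.63 and Etv5 -0.45 in MSCs, and none of the 3 passed 2-fold in CD8+ T cells.

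**Figure D4:**
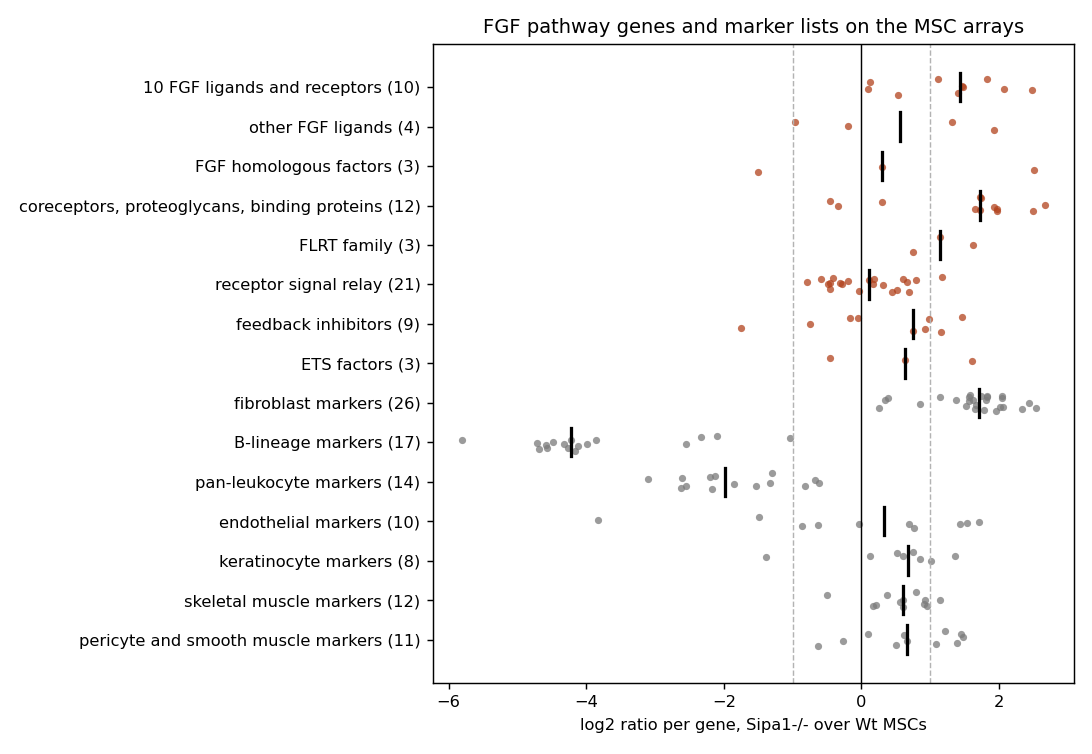
Log2 ratio of Sipa1-/- over Wt MSCs for each gene of the FGF lists (red) and of marker lists of cell types (grey), with arrays scaled to the 75th percentile. Points are genes, black bars are medians, dashed lines mark 2-fold and the number measured stands beside each list. The 10 ligands and receptors have a median of 1.44 beside 1.73 for coreceptors and binding proteins, 0.11 for the relay and 1.70 for fibroblast markers, and aligning the arrays on the fibroblast markers would move every point to the left by 1.70, which turns the first of these medians to -0.27.

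The genes whose levels over the 4 arrays were most like those of Fgfr1 and Fgf7 were sought among 14233 genes, by the root mean square of the differences between levels centred on each gene's mean. For Fgfr1, they were Ldb2, Msx1 and Gulp1, at 0.049, 0.057 and 0.060, where the Fgfr1 levels in CD8+ T cells include probes not well above background. For Fgf7, they were Artn, Hspb2 and Pcdh18, at 0.022, 0.054 and 0.057, and the Artn levels in CD8+ T cells, -7.40 and -6.41, were not well above background, so that its place rests on values without a measured level there. With 4 arrays these likenesses are descriptions only.

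**Figure D5:**
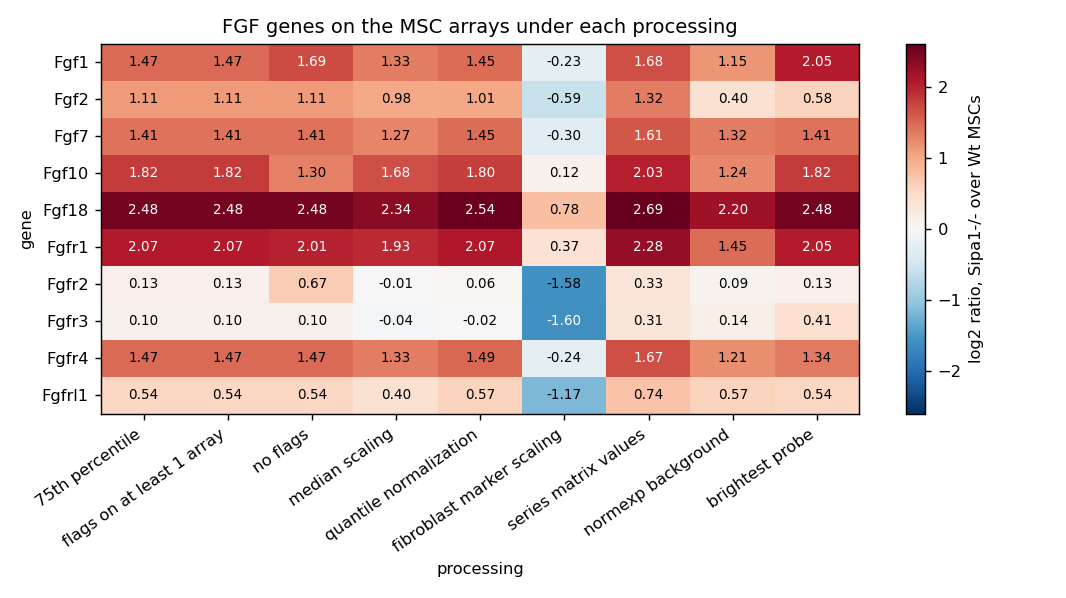
Log2 ratio of Sipa1-/- over Wt MSCs for each FGF gene (rows) under 9 ways of processing the same arrays (columns), with the value printed in each cell and red for higher in Sipa1-/-. Fgf18 and Fgfr1 were higher in every column, at 0.78 and 0.37 where the arrays were aligned on fibroblast markers. Fgf10 had 0.12 in that column, within its spot error of 0.21, and was higher in the others. Fgf1, Fgf2, Fgf7 and Fgfr4 were higher in all columns but that one.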

How the data were processed

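RNA of the 4 sorted populations was hybridized in one color to Agilent SurePrint G3 Mouse v2 arrays. The deposited spot values are intensities that the authors' Feature Extraction software corrected for background, not normalized between arrays. The submitters' processing notes give its version as 9.1 and the file headers as 12.0.3.1. The deposited series matrix holds the same intensities times 1 constant per array, with the choice of constants not given in the sources used here.

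Levels were log2 intensities minus the 75th percentile of the spots that are not controls. Probes entered a ratio where the flags named in the study's methods passed on both arrays (no saturation, even spot and background, signal above background), and probes of a gene were averaged. Symbols came from accessions matched to RefSeq (GRCm38.p6), for 57.6% of spots. A log2 ratio of 1 counted as past 2-fold. Probes on 10 or more spots had a median SD of 0.040 to 0.045, which covers spot noise only, and precision is limited by how few arrays there are.

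The members, lists and rules were chosen with earlier results of these data known. Named genes are the members, Sipa1, other FGF ligands above background, up to 3 genes per pathway list with the largest MSC ratio, the 3 genes nearest to Fgfr1 and to Fgf7 in pattern, and up to 2 genes per marker list with the highest signal, which does not rank their RNA. Alternatives were other flag rules, scalings by the median, quantiles or fibroblast markers, the series matrix, normexp (offset 50, on median spot signals), only genes above the median signal, and 1 probe per gene, the brightest. Python 3.11.15, pandas 2.3.3, R 4.3.3 and limma 3.58.1 were used.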

Additional observations from a re-analysis of the deposited data

Results flagged for a closer look

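Fgf2, Fgfr4, Fgfrl1, Dusp6, Fgf13, Fgf8, Frs3, Plcg1 and Spry2 stood out among the genes named above because their ratios had opposite signs in the 2 cell types. Whether the cell types differed was not tested. The log2 ratio of Sipa1-/- over Wt for Fgf2 was 1.11 ± 0.17 in MSCs against -0.29 ± 0.30 in CD8+ T cells. For Fgfr4 it was 1.47 ± 0.14 against -0.06 ± 0.25, and for Fgfrl1 0.54 ± 0.20 against -0.08 ± 0.21. These 3 ratios in CD8+ T cells were within spot error, so they give no direction there. With the MSC arrays aligned on fibroblast markers the 3 genes had -0.59, -0.24 and -1.17 in MSCs. The CD8+ T-cell arrays were not aligned in that way, so the 2 cell types cannot be compared under it. For Dusp6 the ratio was -1.75 in MSCs against 0.11, and for Fgf13 -1.50 against 0.02, so both differed little in CD8+ T cells. Within 2-fold in both cell types, Spry2 had 0.93 against -0.66, Frs3 0.79 against -0.24, Plcg1 -0.78 against 0.30 and Fgf8 -0.19 against 0.15. The Fgfr1 probe with the highest signal, which the reported mean of Fgfr1 leaves out because its local background was uneven, had Sipa1-/- over Wt at 1.83 in MSCs and 0.80 in the T cells.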

How the results depend on the processing

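No array could be left out, since each condition has 1. No paired analysis was possible because the groups share a single replicate number with 1 array each. Aligning the MSC arrays on the fibroblast markers had the largest effect and moved the median of all genes to -1.66. The FGF median then turned from 1.44 to -0.27, with 3 members past 2-fold, all lower, and Fgf1 turned to -0.23, Fgf2 to -0.59, Fgf7 to -0.30 and Fgfr4 to -0.24. The cause follows from the scaling itself, which subtracts the fibroblast median from every gene. The FGF median in MSCs was 1.64 with the series matrix values and 1.18 with normexp. The count of 7 members past 2-fold in MSCs was 6 with median scaling, normexp or the brightest probe of each gene. Under these Fgf2 had 0.98, 0.40 and 0.58. Among genes above the median signal, 2 of the 3 members measured passed 2-fold in MSCs, beside 1307 higher and 901 lower of 7649 genes. For MSCs over CD8+ T cells it was 1 of 1 in Wt tumors, beside 860 and 861 of 7112 genes. In Sipa1-/- tumors it was 1 of 1, beside 1307 and 1384 of 7150 genes. So few members cannot be set beside those shares. In CD8+ T cells no member was left to give a value, since the members measured lay below that median. In CD8+ T cells the count of 2 members past 2-fold was 1 with flags on at least 1 array, 1 without flags, 0 with median scaling, 0 with quantile normalization and 0 with normexp, but 3 with the series matrix values and 3 with the brightest probe of each gene. With flags on at least 1 array, Fgf1 in CD8+ T cells turned to -0.030, when its second probe entered. For single members across these alternatives, 101 values stayed within spot error, 37 moved further and the 5 past 2-fold given above turned. Of the first 2 kinds, 12 values of members reported within 2-fold also turned sign, among them Fgfr2, Fgfr3 and Fgfrl1 in MSCs, at -1.58, -1.60 and -1.17 under the fibroblast alignment.

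Over all genes, counts of higher and lower past 2-fold in MSCs were 2958 and 1733, against 1828 and 1190 with normexp and 1307 and 901 above the median signal. In CD8+ T cells they were 381 and 201, against 685 and 371 with flags on at least 1 array, 1059 and 633 without flags, 108 and 98 with normexp and 67 and 70 above the median signal. The share higher among these genes went from 63.1% to 74.1% in MSCs with the series matrix values, and in CD8+ T cells from 65.5% to 76.3% with the matrix and 52.5% with median scaling. For MSCs over CD8+ T cells it went from 57.4% to 76.6% and 45.5% in Wt tumors and from 54.0% to 76.3% and 42.9% in Sipa1-/- tumors. The same 2 scalings put the median of all genes at 0.25 and -0.10 in MSCs and at 0.11 and -0.17 in CD8+ T cells.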
